A study of Mus musculus with 12 samples.

Results

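Postn, Sparc, Thbs1, Fn1, Fbn1, Eln, Dcn, Bgn and Lum encode proteins of the extracellular matrix that are not collagens, and their transcripts were followed through mouse kidney after busulfan, alginate oligosaccharides (AOS), both or neither. The genes were taken by symbol from a table of 19261 genes, in which all 9 were present once. All 9 also had enough reads to be among the 14428 genes tested.

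RNA sequencing was done on kidney tissue, and 12 libraries fall into 4 groups of 3. Busulfan is an alkylating drug that crosslinks DNA, and AOS are short sugar chains made from alginate, a polymer of brown seaweeds. In the busulfan plus AOS group 1 dose of busulfan at 40 mg/kg was followed by 5 weeks of AOS at 10 mg/kg. Animals of the busulfan group had a single 40 mg/kg dose, those of the AOS group only the 5 weeks of AOS at 10 mg/kg, and controls neither agent. The labels write the strain of all groups as IRC mouse. They give no age, sex or time of kidney collection, and they do not say that the 3 samples of a group came from separate animals, so each p-value reflects only sample-to-sample spread, which may be technical. The labels' tissue entry reads cells while the protocol names kidney. In every library 12 proximal tubule markers, the epithelium that makes up most of the renal cortex, summed to 38970.7 CPM or more (CPM being reads scaled to a common library total).

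The interstitial matrix of the kidney is laid down mainly by fibroblasts, pericytes and smooth muscle cells of the vessel wall. Fibronectin and the fibrillin microfibrils form scaffolds, elastin gives vessel walls recoil, and the small leucine-rich proteoglycans decorin, biglycan and lumican coat collagen fibrils and bind growth factors. Periostin, SPARC and thrombospondin 1 are matricellular proteins: they regulate how cells hold on to the matrix more than they build it, and they are known for appearing at sites of injury and repair. In whole tissue, fewer cells of a type and less RNA per cell cannot be told apart, and the same holds for more.

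The genes lie on 7 chromosomes of GRCm38.p6 (mm10). RefSeq annotates each as protein coding. Postn spans chr3:54359267-54391041, Sparc chr11:55394159-55420080, Thbs1 chr2:118111876-118127133, Fn1 chr1:71585473-71653280, Fbn1 chr2:125300594-125506485, Eln chr5:134702595-134747368 and Bgn chrX:73483601-73495936. Dcn at chr10:97479500-97518163 and Lum at chr10:97565501-97572703 are neighbours with 47337 bases between them. RefSeq promoter sequence of this build was at hand for 4 of the 9 genes (Postn, Sparc, Bgn and Fbn1). The windows of Postn, the gene with the highest fold change after busulfan alone, of Sparc, the most abundant transcript, and of Bgn, whose fold change had the smallest standard error, are shown because their transcripts are set side by side throughout. Each window holds the 250 bases before a start site, written 5′ to 3′ on the gene's own strand, with capitals marking a match to a searched motif. The windows are chr3:54360857-54361106 on the plus strand for the downstream Postn start, chr11:55420081-55420330 on the minus strand for Sparc and chrX:73483351-73483600 on the plus strand for Bgn.
Postn: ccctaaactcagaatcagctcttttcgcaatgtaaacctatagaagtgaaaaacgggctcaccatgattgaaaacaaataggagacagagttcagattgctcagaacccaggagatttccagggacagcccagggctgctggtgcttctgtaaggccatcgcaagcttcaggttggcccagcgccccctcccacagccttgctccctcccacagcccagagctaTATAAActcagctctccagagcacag
Sparc: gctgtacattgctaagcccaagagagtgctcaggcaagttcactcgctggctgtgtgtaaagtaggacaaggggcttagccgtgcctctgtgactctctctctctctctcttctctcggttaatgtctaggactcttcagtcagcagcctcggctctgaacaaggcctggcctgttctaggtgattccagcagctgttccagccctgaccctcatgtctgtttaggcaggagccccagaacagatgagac
Bgn: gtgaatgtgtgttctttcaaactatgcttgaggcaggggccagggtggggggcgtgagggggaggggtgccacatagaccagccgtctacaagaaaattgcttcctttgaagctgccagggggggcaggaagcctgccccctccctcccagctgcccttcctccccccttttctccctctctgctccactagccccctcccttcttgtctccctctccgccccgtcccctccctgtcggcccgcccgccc
The motifs searched on both strands were TATAAA (the TATA box), TGANTCA (the AP-1 site, N being any base) and GGAATG (the TEAD site). The Postn window holds TATAAA on its own strand with the first base 26 bases before the start, and it overlaps no other motif. These letters occur in 12.4% of 32851 RefSeq promoter windows of the same length, against 6.75% for TGANTCA and 12.6% for GGAATG. No motif was found in the Sparc and Bgn windows, in the Fbn1 window or in the window of the upstream Postn start, which says only that these letters are not in those stretches.

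Library totals ranged from 13875942 to 15329347 estimated reads, so that a count of 0 would allow 0.196 to 0.216 CPM, a limit for counting error only, and none of the 9 genes was at 0 in any library. Several libraries stood apart. Busulfan replicates 2 and 3 carried 529.9 and 969 CPM of 13 adipose markers in sum, against 34.1 to 98.1 CPM in the remaining 10 libraries. In those 2 libraries the fatty acid carrier Fabp4 measured 183 and 296 normalized CPM and the adipokine adipsin, Cfd, 145 and 227 normalized CPM. Transcripts of 14 adrenal markers came to 11635.1 CPM in busulfan replicate 3 against 5.87 to 11.8 CPM elsewhere, and 7 of the markers were at 0 in all control libraries. Those of 15 hepatocyte markers came to 18447.3 CPM in busulfan plus AOS replicate 3 against 81.2 to 387 CPM elsewhere. Egr1, an immediate early gene, measured 334 CPM in busulfan plus AOS replicate 1 and 1.36 to 30.8 CPM in the others. The comparisons that use the adipose-rich, adrenal and hepatocyte libraries are also described without them.

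**Figure D1:**
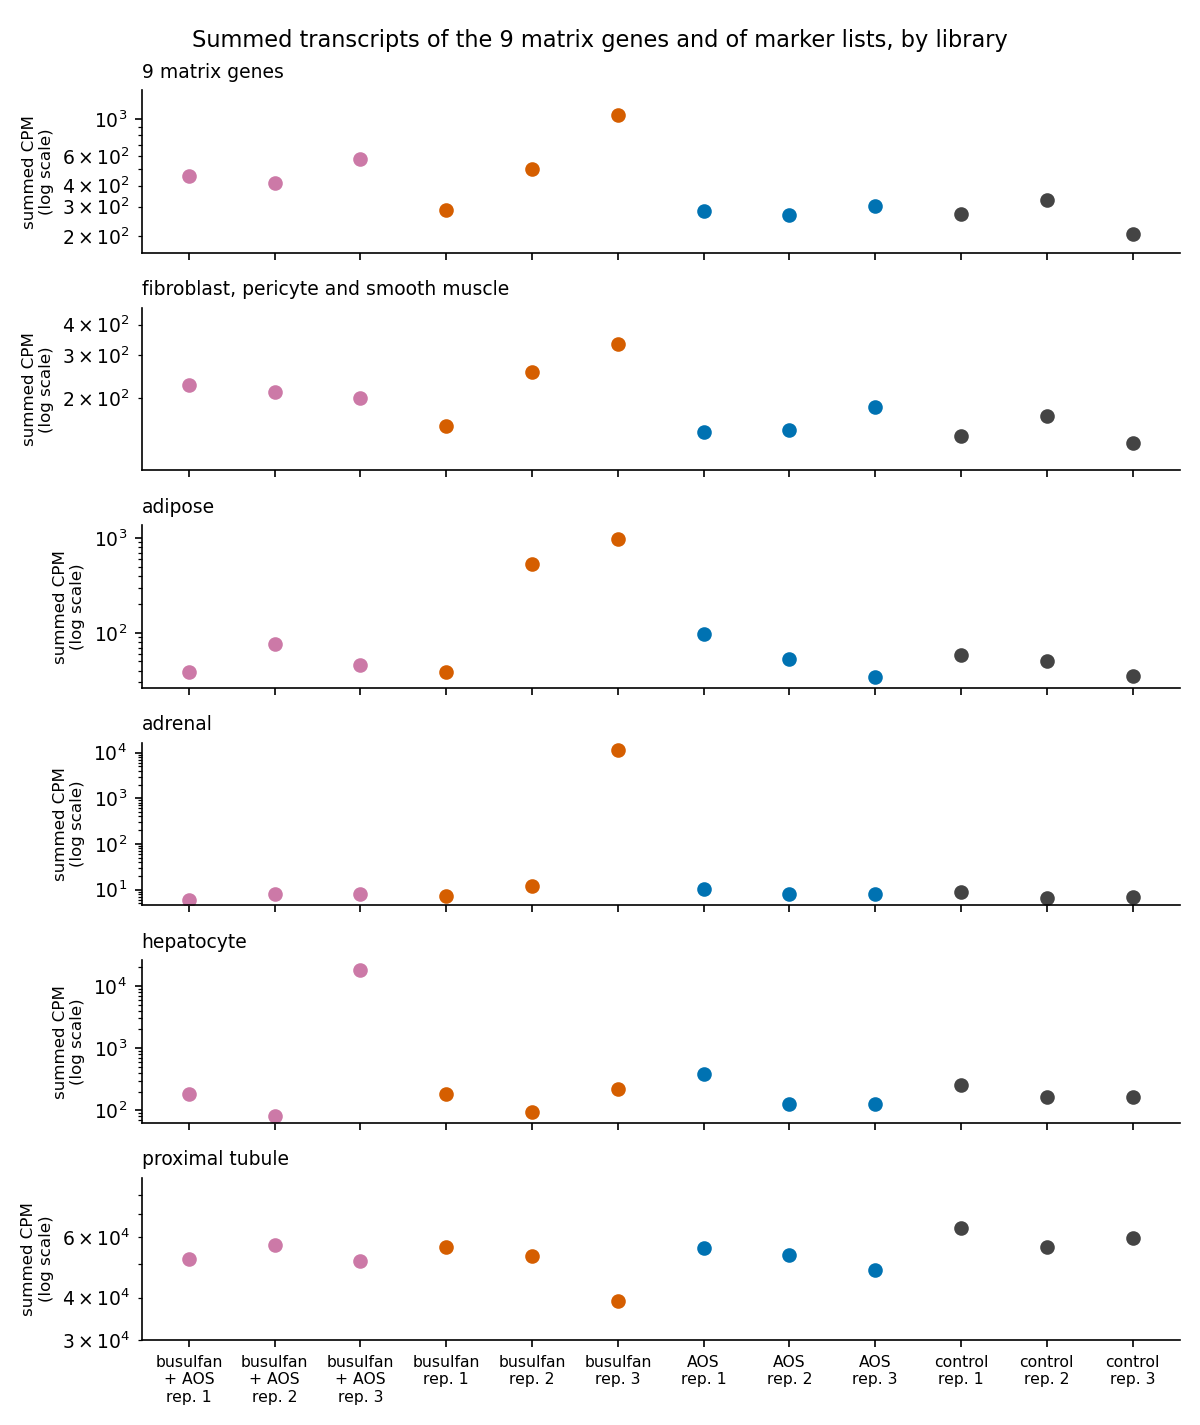
Summed CPM (log axis) in each of the 12 libraries for the 9 matrix genes, 15 measured fibroblast, pericyte and smooth muscle markers, 13 adipose, 14 adrenal, 15 hepatocyte and 12 proximal tubule markers, 1 point per library. Busulfan replicate 3 holds the highest matrix, adipose and adrenal sums (1053.7, 969 and 11635.1 CPM), and busulfan plus AOS replicate 3 holds the highest hepatocyte sum (18447.3 CPM).

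The 9 transcripts together made up little of the RNA. Their summed level was 456, 416 and 574 CPM in busulfan plus AOS libraries and 287, 503 and 1053.7 CPM in busulfan libraries, against 283, 268 and 302 CPM in AOS libraries and 273, 331 and 207 CPM in control libraries. All 3 busulfan plus AOS sums lay above all AOS and control sums, while the busulfan sums ran from within the control range to the highest of the series. Per transcript length (FPKM, reads scaled by transcript length and library total), Sparc, Bgn and Dcn were the most abundant in all 4 groups and in that order of group means. Sparc averaged 57.1 ± 7.36 FPKM in busulfan plus AOS, 104 ± 82.6 in busulfan, 36.9 ± 3.02 in AOS and 37.5 ± 5.87 in control libraries (SD, n = 3 each). Bgn averaged 55 ± 5.22 FPKM in busulfan plus AOS, 61.0 ± 17.6 in busulfan, 36.4 ± 4.05 in AOS and 34.5 ± 8.72 in control libraries, within the summed SDs of Sparc in every group. Dcn was next at 31.4 ± 5.11 FPKM in busulfan plus AOS, 50.4 ± 46.4 in busulfan, 21.0 ± 2.78 in AOS and 19.9 ± 6.11 in control libraries, and it was separated from Bgn by more than the summed SDs only in busulfan plus AOS and AOS libraries.

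The other 6 transcripts were present at lower levels per length. Fn1 averaged 4.73 ± 2.30 FPKM and Thbs1 3.61 ± 0.357 FPKM in control libraries, a difference within their summed SDs. Eln followed at 1.16 ± 0.226, Fbn1 at 0.903 ± 0.247, Lum at 0.843 ± 0.252 and Postn at 0.507 ± 0.135 FPKM in control libraries, each within the summed SDs of the next. Postn was the least abundant of the 9 by group mean in busulfan plus AOS (1.02 ± 0.167 FPKM), AOS (0.733 ± 0.170 FPKM) and control libraries. In busulfan libraries it ranked 5th at 6.08 ± 6.28 FPKM, a mean smaller than its own SD.

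**Figure D2:**
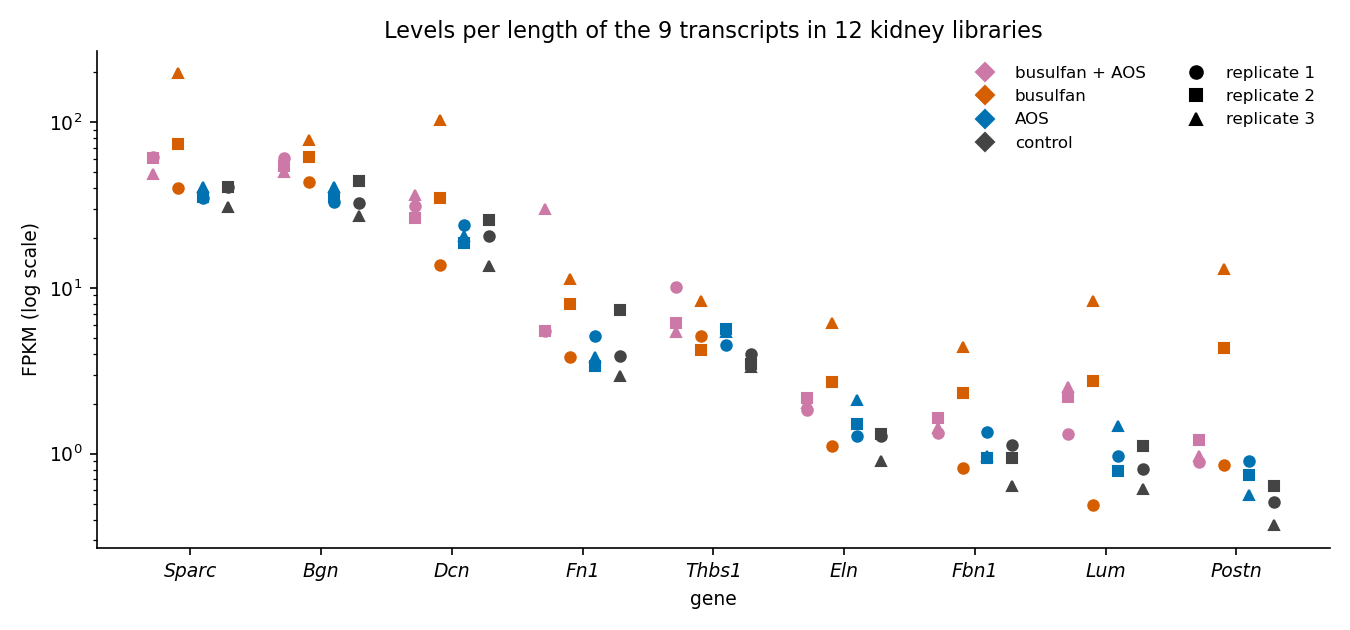
FPKM (log axis) of each transcript in every library, ordered from left to right by level, with colours for groups and shapes for replicate numbers. Sparc, Bgn and Dcn lie highest, and Postn runs from 0.37 FPKM in a control library to 13.0 FPKM in busulfan replicate 3.

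The levels below are normalized CPM, CPM scaled by trimmed means of M values, which compare 1 gene between libraries. Among the matricellular genes, Postn, periostin, which binds integrins and helps collagen fibrils to crosslink, spread most. It had 2.63, 3.54 and 3.13 normalized CPM in busulfan plus AOS libraries and 2.62, 13.1 and 36.4 in busulfan libraries, against 2.68, 2.19 and 1.66 in AOS libraries and 1.6, 1.95 and 1.16 in control libraries. Only busulfan replicates 2 and 3 exceeded 4 normalized CPM, yet the lowest busulfan library was still above the highest control library. These levels rest on 16 to 27 reads in control libraries and on 38, 188 and 605 reads in busulfan replicates 1, 2 and 3. Sparc, which encodes a calcium- and collagen-binding protein, had 135, 132 and 114 normalized CPM in busulfan plus AOS libraries and 90.7, 166 and 405 in busulfan libraries, against 78.3, 77.5 and 88.3 in AOS libraries and 93.2, 92.0 and 71.2 in control libraries. The busulfan plus AOS libraries were closely grouped and lay above all AOS libraries, and busulfan replicate 1 lay within the control range. Thbs1, thrombospondin 1, which can release TGF-beta from its latent form, had 57.0, 35 and 33.0 normalized CPM in busulfan plus AOS libraries and 30.2, 24.5 and 44.4 in busulfan libraries, against 26.1, 32.1 and 30.8 in AOS libraries and 23.6, 20.3 and 20.1 in control libraries. Its control libraries were the lowest 3 of the 12, and its highest library was busulfan plus AOS replicate 1, the one with 334 CPM of Egr1; the part of this in the Thbs1 level was not tested.

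Among the scaffold and elastic fibre genes, Fn1 encodes fibronectin, made by stromal cells and, in its plasma form, by hepatocytes. Fn1 had 41.6, 42.2 and 242 normalized CPM in busulfan plus AOS libraries and 30.3, 62.7 and 80.7 in busulfan libraries, against 40.0, 26.0 and 29.7 in AOS libraries and 31.3, 57.9 and 24.1 in control libraries. Its highest library was the one with 18447.3 CPM of hepatocyte markers, in which serum albumin, Alb, measured 10077.2 normalized CPM and Vtn, the plasma adhesion protein vitronectin, 269.6 normalized CPM. The part of the hepatocyte transcripts in the Fn1 level was not tested. Fbn1, fibrillin 1, the main protein of microfibrils, had 12.7, 15.6 and 14.6 normalized CPM in busulfan plus AOS libraries and 8.08, 22.7 and 39.2 in busulfan libraries, against 13.2, 8.97 and 9.34 in AOS libraries and 11.2, 9.18 and 6.55 in control libraries. A single AOS library overlapped the busulfan plus AOS range. Eln, the precursor of elastin, had 6.65, 7.93 and 7.35 normalized CPM in busulfan plus AOS libraries and 4.21, 10.1 and 20.4 in busulfan libraries, against 4.72, 5.27 and 7.54 in AOS libraries and 4.8, 4.77 and 3.49 in control libraries. For both elastic fibre genes busulfan replicate 1 lay inside the control range and replicates 2 and 3 above it.

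Among the small leucine-rich proteoglycans, Dcn encodes decorin, which binds collagen fibrils and TGF-beta. Dcn had 53.0, 45.2 and 67.3 normalized CPM in busulfan plus AOS libraries and 24.1, 61.4 and 164 in busulfan libraries, against 42.0, 31.6 and 34.7 in AOS libraries and 36.8, 45.0 and 24.4 in control libraries. Busulfan libraries thus held the highest Dcn level of the series, while busulfan replicate 1 and control replicate 3 were lowest and nearly equal. Which of these was lower depended on the scaling, with 24.1 against 24.4 normalized CPM but 13.7 against 13.5 FPKM. Bgn, biglycan, which resembles decorin and can signal through Toll-like receptors when it is released, had 135, 123 and 121 normalized CPM in busulfan plus AOS libraries and 101, 141 and 165 in busulfan libraries, against 76.1, 79.5 and 91.8 in AOS libraries and 75.9, 102 and 64.3 in control libraries. Of the 6 libraries with busulfan, 5 lay above all 6 libraries without it, and busulfan replicate 1 lay just below the highest control library. Lum, lumican, which regulates fibril thickness, had 2.49, 4.18 and 5.17 normalized CPM in busulfan plus AOS libraries and 0.967, 5.39 and 14.9 in busulfan libraries, against 1.9, 1.51 and 2.77 in AOS libraries and 1.6, 2.17 and 1.24 in control libraries. The lowest of these, busulfan replicate 1, rests on 14 reads.

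**Figure D3:**
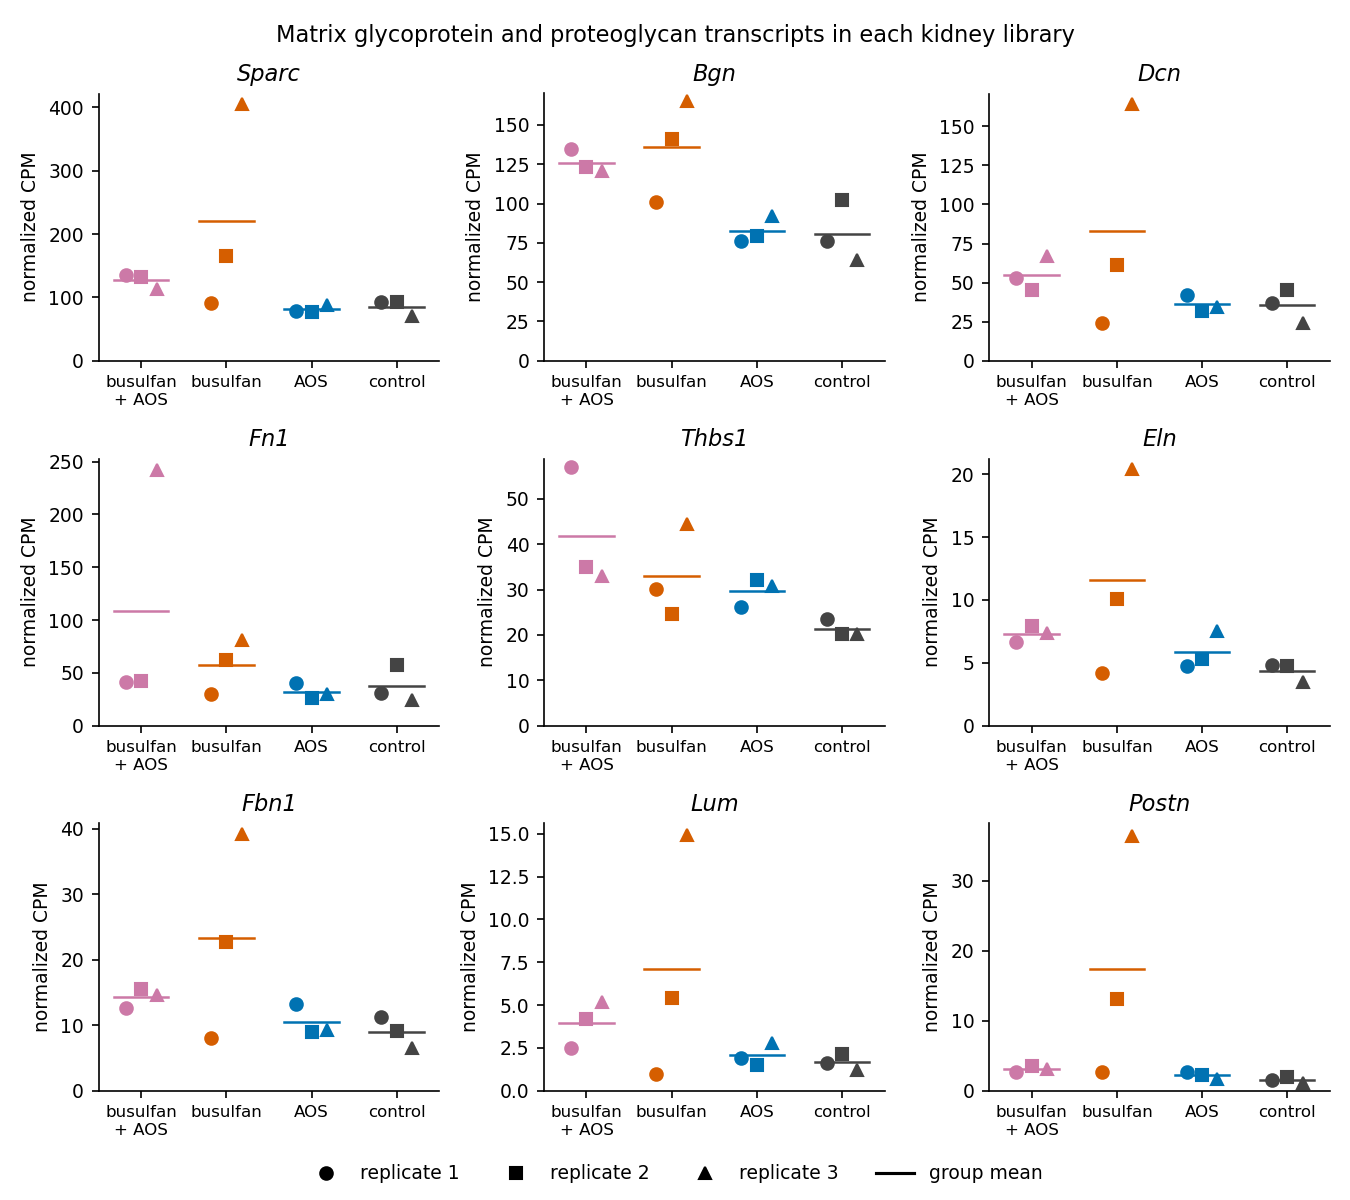
Normalized CPM of each gene by group, with 1 point per library, shapes for replicate numbers and a line at the group mean. Busulfan replicate 3 is the highest library for 7 of the 9 genes, Fn1 being highest in busulfan plus AOS replicate 3 (242 normalized CPM) and Thbs1 in busulfan plus AOS replicate 1 (57.0 normalized CPM).

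Busulfan alone against control asks what 1 dose left in the kidney transcripts. All 9 genes had higher group means after busulfan, with log2 fold changes from 0.62 to 3.46 and a median of 1.37, beside a median of -0.005 over all genes tested and 49.0% of all genes above 0. By edgeR's quasi-likelihood test 0 of 9 passed an adjusted p of 0.05, where 0.0416% of all genes did, and 8 of 9 were higher at an unadjusted p under 0.05, where 7.01% of all genes were. Postn averaged 17.4 ± 17.3 normalized CPM in busulfan and 1.57 ± 0.394 in control libraries (SD, n = 3 each), which gives a log2 fold change of 3.46 ± 0.73 (SE) and an edgeR adjusted p of 0.242. Bgn averaged 136 ± 32.7 normalized CPM in busulfan and 80.6 ± 19.1 in control libraries, 0.75 ± 0.19 on the log2 scale with an edgeR adjusted p of 0.405. Sparc stood at 1.37 ± 0.41, Eln at 1.41 ± 0.45, Fbn1 at 1.38 ± 0.44, Lum at 2.08 ± 0.74, Dcn at 1.24 ± 0.53, Thbs1 at 0.63 ± 0.24 and Fn1 at 0.62 ± 0.66 on the same scale, with edgeR adjusted p between 0.416 and 0.783. The groups did not overlap for Postn and Thbs1, 2 of 9, where 5.72% of all genes were higher in busulfan without overlap.

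The 3 busulfan libraries differed widely among themselves. In replicates 2 and 3, all 9 genes lay above the control range. In replicate 1 only Postn and Thbs1 did, 5 genes lay within it, and Dcn and Lum lay below it. For Dcn this was by 24.1 against 24.4 normalized CPM only. The share of all genes that lay outside the control range in each of these libraries was not counted, so these counts have no background beside them. Replicates 2 and 3 are the libraries with 529.9 and 969 CPM of adipose markers, and replicate 1 had 38.7 CPM, against 35.1 to 58.6 CPM in control libraries. All 9 adipose markers tested had higher means in busulfan than in control libraries, at a median log2 fold change of 4.69. The 15 measured fibroblast, pericyte and smooth muscle markers summed to 153, 255 and 334 CPM in busulfan and 139, 169 and 131 CPM in control libraries, with no marker at 0, and all 15 had higher means at a median log2 fold change of 0.92, or 0.50 without replicate 3 and 0.05 without replicates 2 and 3. The most abundant of them were 2 pericyte genes. Rgs5 had 31.6, 34.8 and 41.4 normalized CPM in busulfan and 21.1, 29.3 and 23.1 in control libraries, and Pdgfrb had 16.3, 24.8 and 32.8 in busulfan and 19.1, 22.5 and 15.9 in control libraries. The 9 urothelium and mesothelium markers summed to 15.8 to 31.2 CPM in busulfan and 2.72 to 5.46 CPM in control libraries. The part of these marker groups in the matrix result was not tested. Without replicate 3, which also carries the adrenal transcripts, the median of the 9 genes was 0.59 and Postn stood at 2.32, Sparc at 0.59, Eln at 0.72, Fbn1 at 0.78, Lum at 0.92 and Dcn at 0.27. With replicates 2 and 3 both left out, an alternative added once the values were known, which rests on a single busulfan library assumed to vary like the other groups, 4 of 9 genes stayed above 0 at a median of -0.05, with Postn at 0.73, Thbs1 at 0.49, Bgn at 0.31 and Sparc at 0.08. Without replicate 1, by contrast, 6 of 9 passed the edgeR adjusted p of 0.05, where 1.33% of all genes then did, with Postn at 3.97, Sparc at 1.74, Fbn1 at 1.78, Lum at 2.60, Bgn at 0.92 and Eln at 1.81. DESeq2 on all 12 libraries called Postn (adjusted p of 0.000162) and Bgn (adjusted p of 0.0273), where it called 0.859% of all genes.

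**Figure D4:**
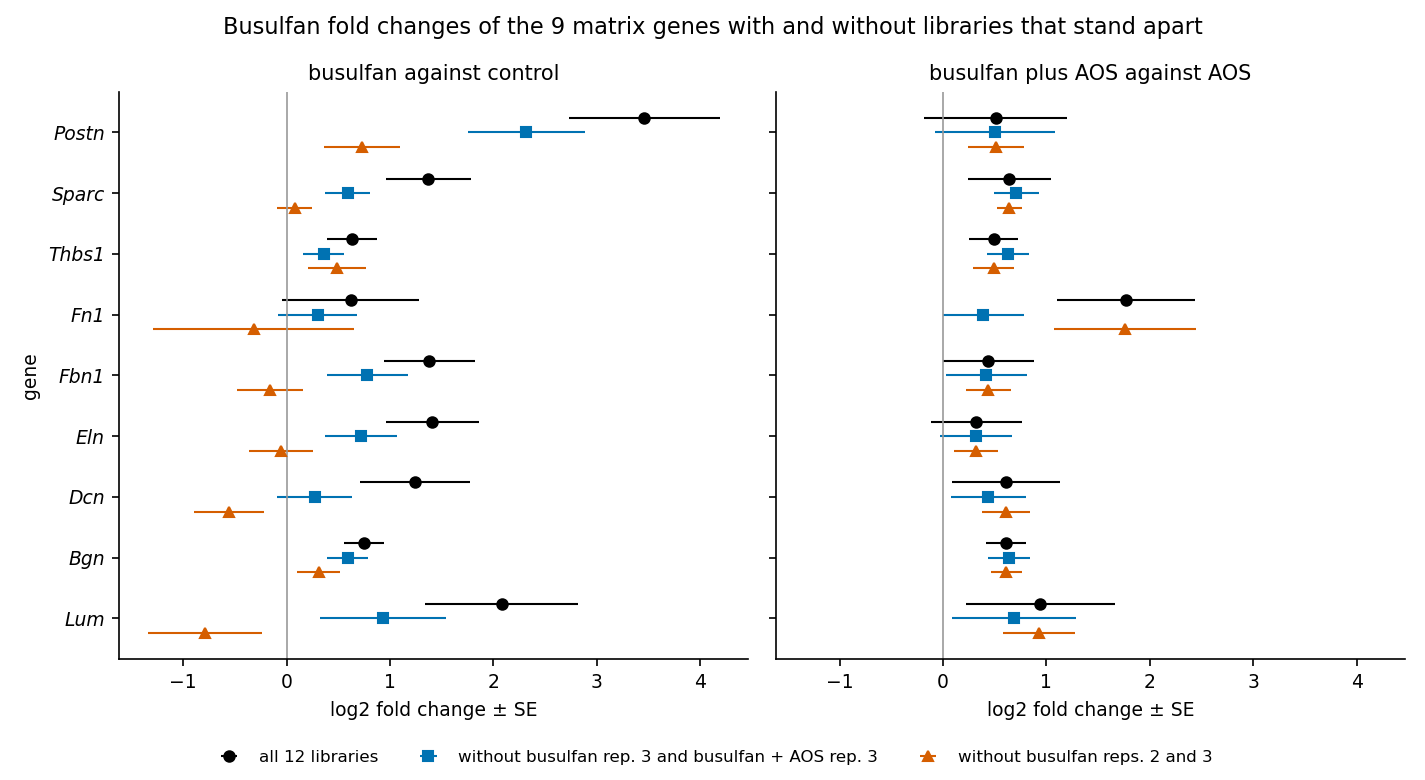
Log2 fold changes with SE bars of the 9 genes for busulfan against control (left) and busulfan plus AOS against AOS (right), from all 12 libraries, without busulfan replicate 3 and busulfan plus AOS replicate 3, and without busulfan replicates 2 and 3. On the left the Postn value stands at 3.46, 2.32 and 0.73 in these settings, while on the right all values lie above 0 and Fn1 stands at 1.77, 0.39 and 1.76.

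Busulfan plus AOS against AOS asks the same with the oligosaccharide present in both groups, and it shares no library with the comparison above. All 9 genes again had higher means, with log2 fold changes from 0.32 to 1.77 and a median of 0.61, beside 0.005 over all genes tested and 51.0% of all genes above 0. EdgeR called 0 of 9 at an adjusted p of 0.05, where 0.0693% of all genes were called, and 2 of 9, Bgn and Fn1, were higher at an unadjusted p under 0.05, where 5.2% of all genes were. The count of 2 depends on the spread shared by all 4 groups. Fitted to the 2 groups compared alone, edgeR gave 6 of 9 at an unadjusted p under 0.05, where 1485 of 14004 genes were in either direction, and still called 0 of 9. Sparc, Bgn, Dcn, Thbs1 and Fn1, 5 of 9, were higher in all 3 busulfan plus AOS libraries than in any AOS library, where 8.49% of all genes were. Bgn averaged 126 ± 7.93 normalized CPM in busulfan plus AOS and 82.5 ± 8.24 in AOS libraries (SD, n = 3 each), 0.61 ± 0.19 on the log2 scale with an edgeR adjusted p of 0.476. Sparc averaged 127 ± 11.3 normalized CPM in busulfan plus AOS and 81.4 ± 5.98 in AOS libraries, at 0.64 ± 0.40 on the log2 scale with an edgeR adjusted p of 0.668. The SE of Sparc is that of a spread shared by all 4 groups, and without busulfan replicates 2 and 3 its fold change was 0.64 ± 0.12 with an edgeR adjusted p of 0.163. Dcn stood at 0.61 ± 0.52, Thbs1 at 0.49 ± 0.24, Lum at 0.94 ± 0.72, Postn at 0.51 ± 0.69, Fbn1 at 0.44 ± 0.44 and Eln at 0.32 ± 0.44.

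Fn1 had the largest value here, 1.77 ± 0.67 on the log2 scale with an edgeR adjusted p of 0.489, and it stood at 0.39 without busulfan plus AOS replicate 3, the hepatocyte library. What in that library raised the Fn1 value was not tested. Thbs1 stood at 0.19 without busulfan plus AOS replicate 1. The median of the 9 genes was 0.50 without the hepatocyte and adrenal libraries, with all 9 above 0. The adipose markers did not stand apart in this comparison: they summed to 38.7 to 75.5 CPM in busulfan plus AOS and 34.1 to 98.1 CPM in AOS libraries, and the adrenal markers to 5.87 to 7.93 CPM in busulfan plus AOS and 7.99 to 10.2 CPM in AOS libraries. The fibroblast, pericyte and smooth muscle markers summed to 226, 212 and 199.7 CPM in busulfan plus AOS and 145, 147 and 184 CPM in AOS libraries, with all 15 at higher means and a median log2 fold change of 0.53; their part in the matrix values was not tested.

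Averaged over both levels of AOS, busulfan was accompanied by higher means of all 9 genes, at a median log2 difference of 0.92 beside -0.001 over all genes, where 49.7% were above 0. All 9 were higher at an edgeR unadjusted p under 0.05, where 7.59% of all genes were. Without the adrenal and hepatocyte libraries this count was 4 of 9, where 1267 of 14476 genes had such a p in either direction. Over all 12 libraries 0 of 9 passed edgeR's adjusted p of 0.05, where 0.194% of all genes did. Bgn came nearest, at 0.68 ± 0.14 with an edgeR adjusted p of 0.108, and Postn stood at 1.99 ± 0.50 with an edgeR adjusted p of 0.23. Lum measured 1.51 ± 0.51, Fn1 1.19 ± 0.47, Sparc 1.01 ± 0.29, Dcn 0.92 ± 0.37, Fbn1 0.91 ± 0.31, Eln 0.87 ± 0.31 and Thbs1 0.56 ± 0.17. None of the 9 genes had all 6 busulfan-treated libraries above all 6 others, where 0.769% of all genes did. DESeq2 called Postn and Bgn (adjusted p of 0.00428 and 0.000404), where it called 1.55% of all genes. Without busulfan replicates 2 and 3 the median was 0.36, with Fn1 at 0.72, Postn at 0.62, Thbs1 at 0.49, Bgn at 0.46, Sparc at 0.36, Fbn1 at 0.14, Eln at 0.13, Lum at 0.07 and Dcn at 0.02. Without busulfan plus AOS replicate 3, the hepatocyte library, Fn1 stood at 0.51.

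AOS alone against control asks what the oligosaccharide does by itself. Of 9 genes, 7 had higher means in AOS libraries, where 51.0% of all genes did, with log2 fold changes from -0.24 to 0.48 at a median of 0.23 beside 0.004 over all genes. EdgeR called 0 of 9, where 0% of all genes passed, and 0 of 9 had an unadjusted p under 0.05, where 3.59% of all genes did; DESeq2 called 10 genes over the whole table and none of the 9. Thbs1 was the only one of the 9 whose groups did not overlap, where 6.17% of all genes were higher without overlap. It averaged 29.7 ± 3.19 normalized CPM in AOS and 21.3 ± 1.99 in control libraries (SD, n = 3 each), 0.48 ± 0.24 on the log2 scale with an edgeR adjusted p of 1.

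Busulfan plus AOS against busulfan asks whether the oligosaccharide given afterwards altered the busulfan state, and it shares the busulfan libraries with busulfan against control. Of 9 genes, 7 had lower means in busulfan plus AOS libraries, at a median log2 fold change of -0.67 beside -0.01 over all genes, where 52.2% were below 0. EdgeR called 0 of 9, where 0% of all genes passed, and only Postn was lower at an unadjusted p under 0.05, where 4.12% of all genes were; DESeq2 called 24 genes over the whole table and none of the 9. Postn averaged 3.10 ± 0.455 normalized CPM in busulfan plus AOS and 17.4 ± 17.3 in busulfan libraries (SD, n = 3 each), -2.49 ± 0.69 on the log2 scale with an edgeR adjusted p of 0.477. Sparc stood at -0.80 ± 0.40, Lum at -0.85 ± 0.70, Fbn1 at -0.71 ± 0.43, Eln at -0.67 ± 0.44, Dcn at -0.60 ± 0.52 and Bgn at -0.11 ± 0.19, against Thbs1 at 0.33 ± 0.24 and Fn1 at 0.91 ± 0.65. The groups overlapped for all 9 genes, where 4.19% of all genes were lower without overlap. These values turned with the libraries that stand apart: the median was 0.06 without busulfan replicate 3, and 0.80 with all 9 genes above 0 when busulfan replicates 2 and 3 were both left out, where Postn stood at 0.24. The adipose markers summed to 38.7 to 75.5 CPM in busulfan plus AOS and 38.7 to 969 CPM in busulfan libraries, and their part was not tested.

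The interaction, the busulfan fold change with AOS minus that without it, was below 0 for 8 of 9 genes at a median of -0.72 beside -0.01 over all genes, where 51.7% were below 0. EdgeR called 0 of 9, where 0% of all genes passed, and only Postn was lower at an unadjusted p under 0.05, where 2.92% of all genes were; DESeq2 called 11 genes and none of the 9. Postn stood at -2.95 ± 0.99 with an edgeR adjusted p of 0.793, and at -0.22 without busulfan replicates 2 and 3. The median was 0.03 without busulfan replicate 3.

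The 9 genes followed their own average across libraries to different degrees. On the log2 scale and centred on each gene's own mean, their average was 0.14, 0.21 and 0.51 in busulfan plus AOS libraries and -0.53, 0.67 and 1.65 in busulfan libraries, against -0.29, -0.47 and -0.29 in AOS libraries and -0.46, -0.27 and -0.88 in control libraries. Fbn1 and Dcn followed this average most closely, each with a root mean square difference of 0.19 over the 12 libraries, followed by Eln and Sparc at 0.20, Bgn at 0.36 and Lum at 0.41. Thbs1 at 0.56, Fn1 at 0.65 and Postn at 0.74 departed from it most. Each gene is part of this average, which by itself lowers its difference. Ranked by closeness among the 14428 genes tested, Fbn1, Dcn, Eln and Sparc were 6th to 9th, Bgn 175th and Lum 385th. Thbs1 ranked 1470th, Fn1 4118th and Postn 9542nd, so that many genes outside the 9 lay nearer than these. Thbs1 differed from the average most in busulfan replicates 3 and 2, by -1.09 and -0.96, and then in busulfan plus AOS replicate 1, by 0.78. Fn1 differed most in busulfan plus AOS replicate 3, by 1.88, and Postn in busulfan replicates 2 and 3, by 1.29 and 1.77.

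By the same measure, the 6 tested genes outside the 9 that lay nearest to their average were Col12a1 (0.165), Prelp (0.172), Col3a1 (0.177), Pltp (0.179), Col1a2 (0.188) and Zim1 (0.208). Col3a1 and Col1a2 encode chains of the fibrillar collagens III and I, Col12a1 a collagen that sits on fibril surfaces, Prelp another small leucine-rich proteoglycan, Pltp the phospholipid transfer protein of plasma and Zim1 an imprinted zinc finger protein. Col3a1 had 46.9, 57.1 and 49.6 normalized CPM in busulfan plus AOS libraries and 26.0, 72.9 and 152 in busulfan libraries, against 34.8, 30.1 and 26.9 in AOS libraries and 27.6, 34.6 and 19.6 in control libraries. Likeness here is over 12 libraries that include the ones standing apart, and Zim1 was low throughout, at 0.691 to 4.99 normalized CPM.

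Other matrix genes and receptors were counted from lists of their families. None of their tested members passed edgeR's adjusted p of 0.05 in any of the 6 comparisons over all 12 libraries, where 0% to 0.194% of all genes did. With so few genes called anywhere, this says little about the lists themselves. For busulfan against control, 6 of 7 other small leucine-rich proteoglycans were higher at a median log2 fold change of 0.76, 14 of 14 elastic fibre and microfibril genes at 1.07, 22 of 27 other matricellular and adhesive glycoproteins at 0.79, 7 of 8 large proteoglycans at 0.59, 12 of 13 laminins and nidogens at 0.40 and 14 of 18 receptors at 0.29. Without busulfan replicate 3 these medians were 0.29 for the small leucine-rich proteoglycans, 0.48 for the elastic fibre genes, 0.35 for the matricellular and adhesive genes, -0.25 for the large proteoglycans, 0.20 for the laminins and nidogens and 0.05 for the receptors, and without busulfan replicates 2 and 3 all 6 lay between -0.25 and 0.08. For busulfan plus AOS against AOS the small leucine-rich proteoglycans gave 7 of 7 at 0.50, the elastic fibre genes 11 of 14 at 0.50, the other matricellular and adhesive genes 26 of 27 at 0.46, the large proteoglycans 5 of 8 at 0.09, the laminins and nidogens 11 of 13 at 0.19 and the receptors 12 of 18 at 0.24. The medians of the 9 genes, 1.37 and 0.61, stood above those of all 6 lists in both comparisons over 12 libraries, a difference that was not tested. That order did not hold without busulfan replicates 2 and 3 for busulfan against control, nor without the hepatocyte and adrenal libraries for busulfan plus AOS against AOS, where the small leucine-rich proteoglycans stood at 0.72 and the elastic fibre genes at 0.54 against 0.50 for the 9 genes. Nor did it hold in every other setting. Apart from single libraries left out, the large proteoglycans reached 1.4 for busulfan against control, where the 9 genes reached at most 1.39. For busulfan plus AOS against AOS the small leucine-rich proteoglycans reached 0.77, where the 9 genes reached at most 0.63.

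**Figure D5:**
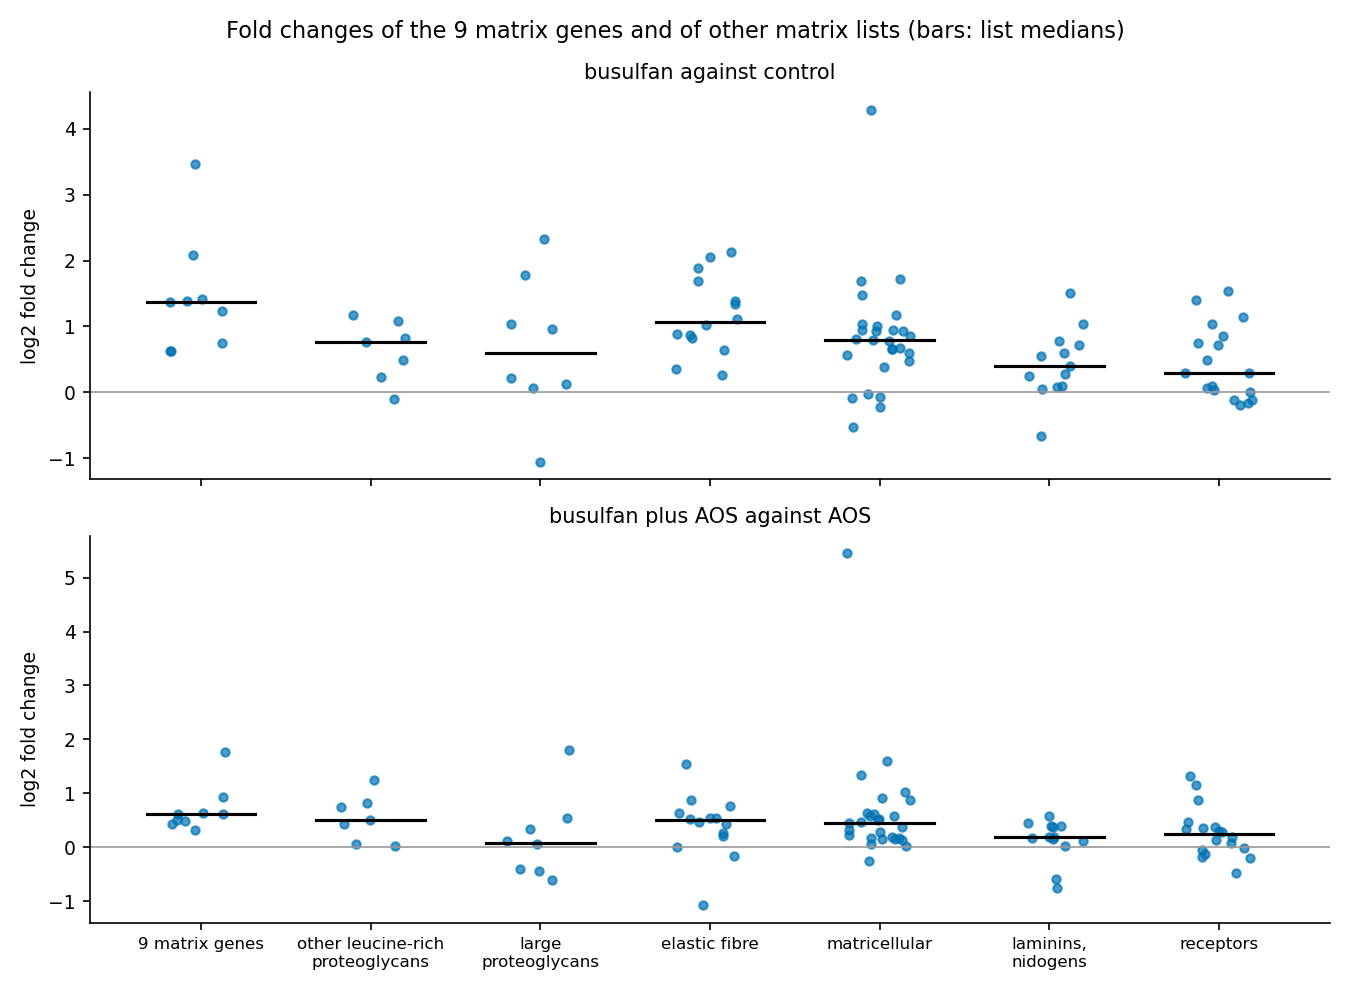
Log2 fold changes of each tested gene, 1 point per gene with a bar at the list median, for busulfan against control (top) and busulfan plus AOS against AOS (bottom). The 9 matrix genes have medians of 1.37 and 0.61, beside 1.07 and 0.50 for elastic fibre genes and 0.29 and 0.24 for receptors.

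Of these genes, those with the lowest p for busulfan against control began with Lamc1, the laminin gamma 1 chain of basement membranes, which averaged 55.8 ± 9.83 normalized CPM in busulfan and 36.8 ± 1.64 in control libraries (SD, n = 3 each), 0.60 ± 0.12 on the log2 scale with an edgeR adjusted p of 0.231. Esm1, an endothelial proteoglycan (endocan), was lower without overlap, at 10.4, 6.78 and 7.33 normalized CPM in busulfan and 18.8, 15.9 and 16.2 in control libraries, -1.05 ± 0.22 with an edgeR adjusted p of 0.242. Mfap4, a microfibril-associated protein, stood at 2.13 ± 0.53, Tnc, the injury-associated matricellular protein tenascin C, at 1.69 ± 0.50, and Fbln1, fibulin 1, at 1.34 ± 0.39. Nid1, nidogen 1, which joins laminin to collagen IV, stood at 1.04 ± 0.28, Svep1, a large adhesion protein, at 1.03 ± 0.25, and Emilin1, which lies where elastin meets microfibrils, at 0.82 ± 0.24. Without busulfan replicates 2 and 3 each kept its direction, with Esm1 at -0.72, Tnc at 0.66, Mfap4 at 0.59, Svep1 at 0.36, Lamc1 at 0.28, Fbln1 at 0.18, Emilin1 at 0.13 and Nid1 at 0.08. Without busulfan replicate 1, edgeR called all of these but Tnc, with adjusted p from 0.0091 to 0.0345, where it called 1.33% of all genes. DESeq2 on all 12 libraries called Lamc1, Esm1, Mfap4, Nid1 and Svep1 (adjusted p from 0.0048 to 0.0456), where it called 0.859% of all genes. All of these were chosen for low p in this same comparison, so the calls are no separate support.

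For busulfan plus AOS against AOS the lowest p belonged to Lama5, laminin alpha 5, at 0.40 ± 0.12, Emilin1 at 0.76 ± 0.24, Tsku, a small leucine-rich protein, at 0.75 ± 0.24 and Sdc1, the matrix receptor syndecan 1, at 0.87 ± 0.29, each with an edgeR adjusted p of 0.476. Their groups did not overlap, where 8.49% of all genes were higher without overlap, and genes chosen for low p tend to show this. Without the hepatocyte and adrenal libraries Sdc1 stood at 0.35, Lama5 at 0.42, Emilin1 at 0.77 and Tsku at 0.72. In the average over both levels of AOS, Svep1 measured 0.83 ± 0.17 with an edgeR adjusted p of 0.133. It had 15.9, 12.7 and 12.9 normalized CPM in busulfan plus AOS and 10.9, 20.2 and 20.9 in busulfan libraries, against 10.2, 8.70 and 7.89 in AOS and 7.05, 10.5 and 7.93 in control libraries, so that all 6 busulfan-treated libraries lay above the other 6. Emilin1 measured 0.79 ± 0.17, Esm1 -0.72 ± 0.16, Lama3, the laminin alpha 3 chain, -0.62 ± 0.14, Lamc1 0.38 ± 0.09, Mfap4 1.5 ± 0.37, Prelp 0.95 ± 0.24 and Lama5 0.32 ± 0.08. DESeq2 called all 8 of these genes, with adjusted p from 0.00244 to 0.029, where it called 1.55% of all genes. The 8 were chosen for low p in this same comparison, so these calls are no separate support. Without busulfan replicates 2 and 3 Mfap4 stood at 0.73, Svep1 at 0.49, Emilin1 at 0.45, Prelp at 0.39, Lama5 at 0.29, Lamc1 at 0.22, Esm1 at -0.56 and Lama3 at -0.60. Esm1 and Lama3 were thus lower after busulfan while the 9 genes had higher means.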

How the data were processed

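Per the labels, RNA from mouse kidney was sequenced in 12 samples, grouped and numbered by their titles. The authors deposited estimated counts per gene and library, unscaled, with decimals where reads were shared between transcripts (76.8% to 78.8% of values were whole within 0.005; all those of the 9 genes were). They also deposited expression values, taken here as FPKM because of their ratio to count and library total. Set against control replicate 3 as a median over 3183 genes, this ratio differed by at most 0.542% in any library. The build is mm10 per the submitters' processing notes; aligner, counter and strandedness are not stated in those notes or the labels, so that overlapping genes are uncertain.

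Counts were rounded and tested with edgeR 4.0.16 (R 4.3.3): TMM scaling, edgeR's own low-count filter, 1 mean per group over 12 libraries (8 residual degrees of freedom), quasi-likelihood tests, Benjamini-Hochberg adjustment over 14428 genes, threshold 0.05. SE is the absolute log2 fold change divided by the square root of F. The procedure was tested on simulated data. Genes are named by a rule: all 9, the receptor and matrix list genes of lowest p, the 6 of most similar profile and the 2 most abundant markers; Egr1, Vtn, Smoc1, Spock2 and Prg4 were named after their values were seen. The genes, lists and rule were chosen with earlier results of these data known. Alternatives were DESeq2 1.42.0, limma 3.58.1 on log2(FPKM + 1), relative log expression scaling, 2 filters, a replicate block, only the groups compared, and libraries left out. Over all 66 pairs of libraries, the least different pair differed by 2.19 times the sampling variance, so none was counted as a duplicate.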

Additional observations from a re-analysis of the deposited data

How the results depend on the processing

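The limits are set by 3 libraries a group and by the libraries that stand apart. Over up to 21 alternatives no fold change of busulfan plus AOS against AOS or of the average changed direction among the 9 genes and the list genes named, and none of the list genes named for busulfan against control did; the settings were applied to list genes after their values were seen. Relative log expression scaling, the filters, limma on FPKM and the replicate block called none of the 9 genes in any comparison where they were tested. The filter of at least 5 CPM in 3 samples tested only 7 of the 9, leaving out Postn and Lum. These settings turned the direction of no gene that they tested and whose fold change is given. The block left 6 of 9 genes higher for AOS against control, where 7 were higher without it. Deviations from group means correlated at -0.26 to 0.16 over 18 same-numbered pairs of libraries, 4 of them over 0.1. Differently numbered pairs were not set beside these, so whether the replicate numbers pair libraries cannot be told. The block gave 4 called genes over the whole table for busulfan plus AOS against AOS, and 5 for busulfan against control.

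DESeq2 called 2 of the 9 genes, Postn and Bgn, in the average and for busulfan against control, and over all genes 124 for busulfan against control, 89 for busulfan plus AOS against AOS, 223 for the average, 10 for AOS, 24 for busulfan plus AOS against busulfan and 11 for the interaction, against 6, 10, 28, 0, 0 and 0 with edgeR. Fitted to 2 groups at a time, edgeR called 1 gene for busulfan plus AOS against AOS and 0 for busulfan against control. Without the adrenal and hepatocyte libraries it called 6 for busulfan plus AOS against AOS and 1 for busulfan plus AOS against busulfan, and without both adipose-rich libraries 2 for busulfan against control, 18 for the average, 1 for busulfan plus AOS against busulfan and 1 for the interaction; the cause of these shifts was not tested. With each library left out in turn, the count ran from 2 to 195 for busulfan against control, 1 to 25 for busulfan plus AOS against AOS, 18 to 163 for the average, 0 to 26 for busulfan plus AOS against busulfan and 0 to 1 for the interaction. Between 0 and 6 of the 9 genes were called in the average as well as for busulfan against control.

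Without both adipose-rich libraries, busulfan against control turned to -0.05 at the median, to -0.32 for Fn1, -0.16 for Fbn1, -0.79 for Lum, -0.56 for Dcn and -0.05 for Eln, and to -0.18 at the median of the other small leucine-rich proteoglycans, -0.03 of the elastic fibre genes and -0.25 of the large proteoglycans; the cause was not tested. In that setting busulfan plus AOS against busulfan turned to 0.80 at the median, 0.24 for Postn, 0.49 for Sparc, 0.82 for Fbn1, 2.02 for Lum, 1.2 for Dcn, 0.33 for Bgn and 0.80 for Eln, and the interaction median to 0.56. Without the adrenal and hepatocyte libraries, busulfan plus AOS against busulfan turned to 0.06 at the median, 0.06 for Sparc, -0.15 for Fn1, 0.07 for Lum, 0.20 for Dcn, 0.09 for Bgn and 0.02 for Eln, and the interaction median to 0.06, and for busulfan against control the large proteoglycans turned to -0.25 at the median. With 1 library left out at a time, busulfan plus AOS against busulfan ran from -1.06 to 0.06 at the median, -0.28 to 0.06 for Bgn, -1.03 to 0.37 for Dcn, -1.06 to 0.03 for Eln, -0.47 to 1.29 for Fn1 and -1.36 to 0.31 for Lum, the interaction median from -1.09 to 0.03, and the large proteoglycans for busulfan against control from -0.25 without busulfan replicate 3 to 0.84 without busulfan replicate 2.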

Other observations

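Several other matrix genes, named here after their values were seen, were high in the libraries that carry transcripts of other tissues. Smoc1, a relative of SPARC, had 1.11, 1.84 and 11.3 normalized CPM in busulfan plus AOS and 0.691, 2.17 and 35.8 in busulfan libraries, against 2.61, 1.92 and 1.04 in AOS and 0.872, 1.01 and 0.0728 in control libraries. Spock2, a proteoglycan of the same family, measured 21.9 normalized CPM in busulfan replicate 3, the adrenal library, and 0.629 to 2.04 normalized CPM in the other 11. Prg4, the lubricating proteoglycan of joints, measured 9.17 normalized CPM in busulfan plus AOS replicate 3, the hepatocyte library, and 0.208 to 1.83 normalized CPM in the other 11. The part of the other tissues in these levels was not tested.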
